A study of Homo sapiens with 52 samples.

Results

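TRAK1, TRAK2, RHOT1, RHOT2, BICD1, BICD2, HAP1 and SNPH encode adaptors and anchors that join mitochondria, vesicles and other cargo to microtubule motors, and their RNA was followed in neurites and soma of human neurons. They are 8 of the 63241 genes in the deposited count table, listed by symbol. TRAK2 and BICD2 were chosen by their measured values, a shift of the neurite to soma ratio on TDP43 knockdown in these same libraries, so every value of these 2 genes in the TDP43 experiment is given below as a description without a test. No measured value is named in the choice of the other 6 genes, but the list as a whole was made with earlier results of these data known.

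The cells were i3Neurons, glutamatergic-type neurons made from the established human iPSC line WTC11, which carries a doxycycline-inducible neurogenin cassette. All groups come from this 1 line. Cells were replated on day 3 onto inserts with 1 µm pores, and RNA of the neurites below the membrane and of the soma above it was taken on day 17. In the TDP43 experiment, cells carried CRISPR interference with an sgRNA against TDP43 (5 neurite and 5 soma libraries) or a non-targeting sgRNA (5 and 5). In the hnRNPA1 experiment they carried an sgRNA against hnRNPA1 (6 and 6) or a non-targeting sgRNA (6 and 6). A further group of untreated neurons without an sgRNA had 4 neurite and 4 soma libraries. Libraries were made from 10 ng of total RNA, with version 2 of the Takara pico kit for untreated neurons and version 3 for both knockdown experiments, so kit version and experiment cannot be told apart. Whether replicates were separate cultures is not stated, so p-values measure the spread between libraries, which may be technical.

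TRAK1 and TRAK2 (also called Milton proteins) tie the outer-membrane GTPases Miro1 and Miro2, the products of RHOT1 and RHOT2, to kinesin-1 and to dynein, and so move mitochondria along microtubules. In cultured rat hippocampal neurons TRAK1 is found mainly in axons and TRAK2 mainly in dendrites. BICD1 and BICD2 activate dynein with dynactin and carry Rab6 vesicles and other cargo. HAP1 links huntingtin to dynactin and kinesin, and SNPH (syntaphilin) holds axonal mitochondria still on microtubules.

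Total counts per neurite library ran from 6834768 to 14506751 in the TDP43 experiment, 6257922 to 14977395 in the hnRNPA1 experiment and 2541925 to 4346122 in untreated neurons. Total counts per soma library ran from 15719512 to 28902344, 8002038 to 19415973 and 5212152 to 10519656 in the same order. TDP43 knockdown soma sample 5 held 541 counts in all, with each of the 8 genes at 0, and was left out, which leaves 4 libraries in that group and 51 in all. Levels are CPM, counts relative to library size, with TMM scaling inside each experiment, given as mean ± SD. Marker levels and their sums use one TMM scale over all libraries instead. TARDBP, which encodes TDP-43, averaged 41.7 ± 4.25 CPM in TDP43 knockdown neurites and 117 ± 7.22 CPM in non-targeting neurites, and 19.5 ± 0.925 CPM in knockdown soma and 110 ± 4.57 CPM in non-targeting soma. HNRNPA1 averaged 200 ± 15.9 CPM in hnRNPA1 knockdown neurites and 587 ± 32.5 CPM in non-targeting neurites. The neuronal markers summed to 4543 to 7467 CPM over the 10 groups, while pluripotent and glial markers summed to 4.71 to 19.7 CPM and 17.5 to 41.2 CPM.

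TDP-43 is known to bind UG-rich RNA, so the longest spliced transcript of each gene (GENCODE release 29, hg38) was searched for GUGUGU, on the transcript strand only, with overlapping matches counted separately. TRAK2 (6510 bases), BICD2 (6427 bases) and RHOT1 (3297 bases) held no match, which says only that these letters are not in these spliced sequences; introns were not searched. BICD1 and HAP1 held 6 matches each, SNPH 4, TRAK1 3 and RHOT2 3. The longest RHOT2 transcript has no annotated coding sequence, so its matches have no region and may not stand for its coding transcripts. Of 19831 genes with a transcript, 57.3% held the letters, and the median was 0.227 per kb. The density was 1.06 per kb in HAP1, 0.812 in RHOT2, 0.723 in SNPH, 0.681 in BICD1 and 0.542 in TRAK1. Whether these letters bear on the members' values was not tested. The windows below show the longest run in the 3 members whose RNA passed a test on TDP43 knockdown and that hold a match, with the run in capitals and T for U. The TRAK1 and SNPH windows lie in the 3′UTR (bases 3713–3742 and 4677–4706 of the transcripts) and the BICD1 window in the coding sequence (bases 1733–1762). In TRAK1 and BICD1 no run is longer than 6 letters, so all matches tie and the first is shown. Of the BICD1 matches 2 lie in the coding sequence and 4 in the 3′UTR.
TRAK1: tgaaactcccaaGTGTGTtcttatcccatg
BICD1: ctttaccaccatGTGTGTctatgtaataat
SNPH: ctggagtgcatGTGTGTGTgctcagatccc

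The genes lie apart in the genome (hg38). TRAK1 is at chr3:42013802-42225889 on the plus strand and TRAK2 at chr2:201377207-201451579 on the minus strand. RHOT1 is at chr17:32142454-32253374 (plus) and RHOT2 at chr16:668086-674174 (plus). BICD1 is at chr12:32106835-32383633 (plus) and BICD2 at chr9:92711363-92764812 (minus). HAP1 is at chr17:41717742-41734644 (minus) and SNPH at chr20:1266280-1309328 (plus). Overlap with exons of other annotated genes was small: 144 bases of TRAK2 (1.896% of its exons) with STRADB, 204 bases of SNPH (3.57%) with RAD21L1, 260 bases of RHOT1 (4.03%) and 135 bases of BICD1 (1.05%) with antisense genes. The labels and notes do not say whether counting used strand, so reads in these stretches cannot be assigned.

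TRAK2, BICD2 and BICD1 were the most abundant of the 8 RNAs in neurites when levels are set per kb of exon, on one TMM scale over all libraries. In TDP43 knockdown neurites BICD2 stood at 167 ± 16.7 CPM per kb, TRAK2 at 112 ± 7.63, BICD1 at 53.5 ± 6.04 and TRAK1 at 31.4 ± 1.79 CPM per kb (SD, n = 5). In TDP43 non-targeting neurites BICD2 stood at 71.4 ± 10.2 CPM per kb, and BICD1 at 34.8 ± 3.8 and TRAK2 at 34.7 ± 7.77 CPM per kb overlapped. Untreated neurites had another order, with TRAK2 at 113 ± 8.40, BICD1 at 59.1 ± 1.68, BICD2 at 27.2 ± 5.68 and RHOT1 at 26.5 ± 1.85 CPM per kb (n = 4), the last pair within their spread. For TRAK2, untreated neurites and TDP43 knockdown neurites (113 and 112 CPM per kb) overlapped, as did hnRNPA1 knockdown and non-targeting neurites (62.2 and 61.8 CPM per kb). In soma the range was narrower: in TDP43 non-targeting soma TRAK1 had 19.3 ± 0.867 CPM per kb, BICD1 15.7 ± 0.453, SNPH 14 ± 1.09, BICD2 12.6 ± 0.720, RHOT2 11.7 ± 0.934, TRAK2 11 ± 0.438 and RHOT1 7.63 ± 0.450 CPM per kb. With the longest transcript in place of merged exons the order shifted: TRAK1 (45.1 CPM per kb) came above TRAK2 (40.4) in TDP43 non-targeting neurites, and RHOT1 (51.8) above BICD2 (27.2) in untreated neurites. HAP1 was the least abundant member in the 8 groups of the knockdown experiments (1.1 to 2.1 CPM per kb). RHOT2 and SNPH were far lower in untreated neurons than in any group of the knockdown experiments. RHOT2 had 0.596 ± 0.182 CPM per kb in untreated neurites and 1.34 ± 0.388 in untreated soma, against 7.20 to 12.7 over the other 8 groups. SNPH had 2.21 ± 0.832 and 3.41 ± 0.881 CPM per kb in untreated neurites and soma, against 12 to 14 elsewhere. TRAK1 was also lower in untreated neurites and soma, at 9.57 and 8.57 CPM per kb, against 17.5 to 31.4 elsewhere. BICD2 was lower in untreated soma (4.75 CPM per kb) than in the other soma groups (12.1 to 13.5). HAP1 in untreated soma (2.08 CPM per kb) lay near its highest group mean (2.11). The longest transcripts of RHOT2 and SNPH have the highest GC content of the members, 65.8% and 61.3%. HAP1 follows at 57.3%, and TRAK1 has 53.5%, where the median gene has 49.1%. The RHOT2 GC value is of a transcript without annotated coding sequence. The part of kit version or base composition in this was not tested.

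**Figure D1:**
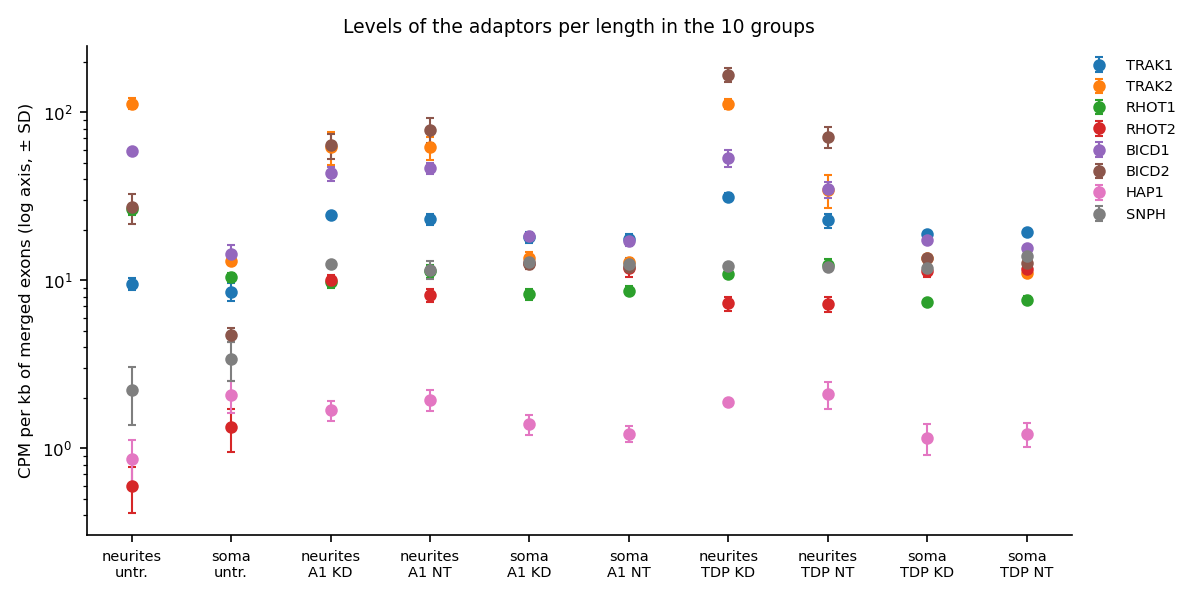
Level of each member in the 10 groups, in CPM per kb of exon on a log axis, with points as group means and bars as SD. BICD2 reaches 167 CPM per kb in TDP43 knockdown neurites, HAP1 stays between 0.864 and 2.11, and RHOT2, SNPH and TRAK1 are lowest in the untreated groups.

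In untreated neurons, 5 of the 8 members were higher in neurites than in soma, 2 were lower and 1 did not pass. Every test across genes below is edgeR's quasi-likelihood test with Benjamini-Hochberg adjustment over all genes tested, and a call is an adjusted p under 0.05. Of 18556 genes tested here, 56.5% were called, 28.7% higher and 27.8% lower. TRAK2 had 1120.3, 1262, 1059 and 1031 CPM in the 4 untreated neurite libraries, against 115, 103, 109.8 and 105 CPM in the soma libraries. The groups lie far apart, with a log2 fold change of 3.37 ± 0.11 (SE, adjusted p = 3.8e-16). BICD2 had 219, 169.7, 268 and 252 CPM in neurites, against 32.9, 32.6, 37.2 and 30.7 CPM in soma, a log2 fold change of 2.77 ± 0.12 (adjusted p = 2.9e-14). BICD1 followed at 2.29 ± 0.11 and RHOT1 at 1.598 ± 0.096 (adjusted p = 1.0e-13 and 4.3e-12). BICD1 ran from 948 to 1044 CPM in neurites, against 172 to 227 CPM in soma, and RHOT1 from 202 to 242 CPM in neurites, against 68.9 to 80.7 CPM in soma. These 4 RNAs were 3.03-fold to 10.3-fold higher in neurites with TMM. With library sizes all 4 were still called higher, at smaller log2 values of 2.16 for TRAK2, 1.58 for BICD2, 1.09 for BICD1 and 0.39 for RHOT1. TRAK1, at 125 to 146 CPM in neurites and 89.3 to 116 CPM in soma, was higher by 0.42 ± 0.10 on the log2 scale (adjusted p = 1.5e-03), but its direction turned to -0.78 when library sizes replaced TMM. HAP1 was lower in neurites by -1.02 ± 0.23 (adjusted p = 7.3e-04), with 8 to 25 counts in neurite and 84 to 278 counts in soma libraries. RHOT2 was lower by -0.996 ± 0.317 (adjusted p = 0.012) on 7 to 9 counts per neurite library, and this call was lost without neurite sample 6 (-0.69) or 7 (-0.89). SNPH stood at -0.31 ± 0.21 (adjusted p = 0.217). With library sizes HAP1 (-2.21), RHOT2 (-2.18) and SNPH (-1.49) were all called lower.

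The scaling bears on every contrast between neurites and soma. With TMM the median gene stood at -0.21 in untreated neurons, -0.05 in hnRNPA1 non-targeting cells and -0.03 in TDP43 non-targeting cells (log2 neurites over soma), and with library sizes at -1.40, -0.40 and -0.63. The 7SL RNAs took 11.4 to 29.8% of counts in TDP43 non-targeting neurites and 0.986 to 1.73% in the soma, and 0.567 to 1.208% in untreated neurites and 0.227 to 0.451% in the soma. Markers of other cell types moved with the fraction too: the cycling markers summed to 27.3 ± 3.19 CPM in TDP43 non-targeting neurites and 11.5 ± 0.646 CPM in the soma, with all 6 tested called higher in neurites, and the neural progenitor markers to 418 ± 27.1 and 238 ± 23.2 CPM, with 4 of 7 called higher. Their part in the members' ratios was not tested. In these bulk fractions, fewer cells of a type and less RNA per cell cannot be told apart.

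The hnRNPA1 non-targeting cells gave 6 members higher in neurites and 1 lower, where 48.4% of 19812 genes were called, 23.5% higher and 24.9% lower. BICD2 ran from 385 to 600.2 CPM in neurites (median 515), against 71.5 to 82.8 CPM in soma (median 77.8), a log2 fold change of 2.697 ± 0.098 (n = 6 each, edgeR adjusted p = 3.8e-20). TRAK2 ran from 381 to 559.8 CPM in neurites (median 454), against 94.5 to 102 CPM in soma (median 96.5), a log2 fold change of 2.26 ± 0.11 (edgeR adjusted p = 3.9e-18). No neurite library came near the soma range for either gene. BICD1 was higher in neurites by 1.42 ± 0.06, HAP1 by 0.64 ± 0.10, TRAK1 by 0.38 ± 0.05 and RHOT1 by 0.38 ± 0.06 on the log2 scale. RHOT2 was lower by -0.55 ± 0.07, and SNPH stood at -0.13 ± 0.06 (edgeR adjusted p = 0.073). With library sizes TRAK1 and RHOT1 fell to 0.03 each and were no longer called.

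The TDP43 non-targeting cells gave a like order. BICD2 had 499, 459.8, 400.4, 343 and 464 CPM in neurites, against 72.5, 78.7, 68.0, 74.6 and 72.7 CPM in soma (log2 2.56 ± 0.08, a description). TRAK2 had 302, 296, 167, 237 and 240.3 CPM in neurites, against 77.1, 77.4, 76.9, 73.9 and 71.7 CPM in soma (log2 1.73 ± 0.10, a description). Both genes separated the fractions fully. Of the other 6 members, 4 were higher in neurites and 2 lower, where 46.5% of 22014 genes were called, 24.1% higher and 22.4% lower. BICD1 was higher by 1.221 ± 0.070, HAP1 by 0.89 ± 0.13, RHOT1 by 0.76 ± 0.06 and TRAK1 by 0.31 ± 0.06 on the log2 scale. Of these, TRAK1 turned to -0.30 with library sizes, HAP1 and RHOT1 (0.29 and 0.13) were then no longer called, and BICD1 kept its call at 0.62. RHOT2 was lower by -0.65 ± 0.08. SNPH was lower by -0.16 ± 0.06 (edgeR adjusted p = 0.024), a call lost without neurite sample 1, soma sample 2 or soma sample 5 (-0.13 to -0.14).

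**Figure D2:**
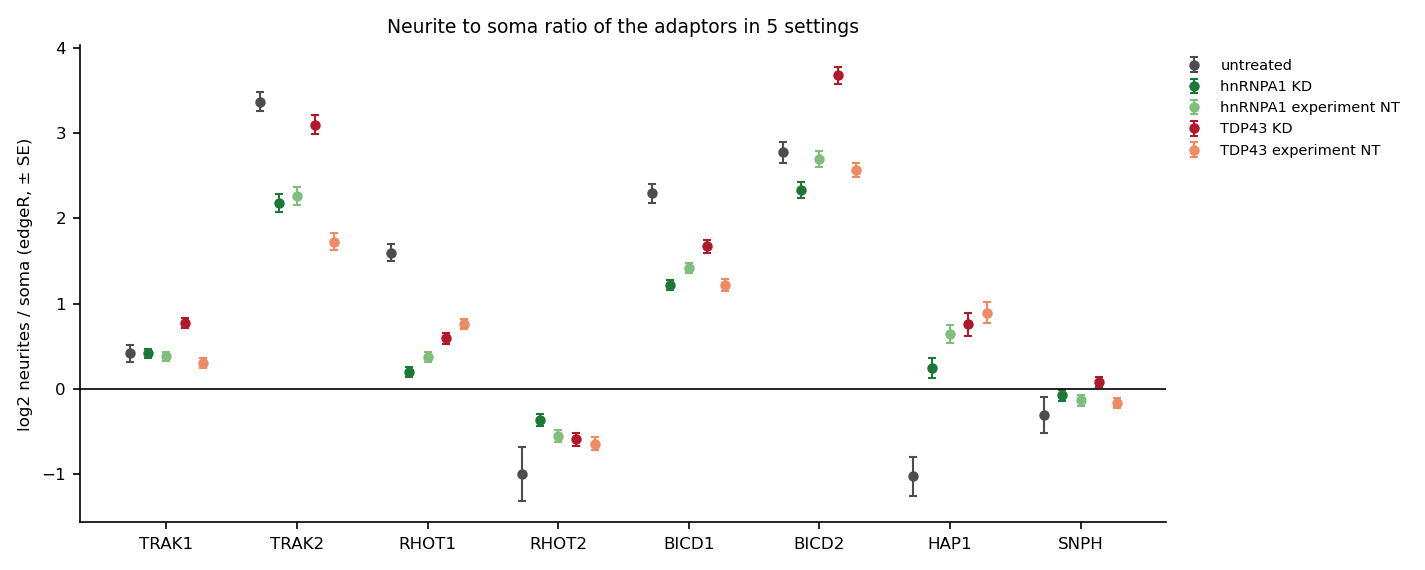
Log2 ratio of neurites to soma for each member in 5 settings, with bars as SE. BICD2 and TRAK2 lie highest in the knockdown experiments (2.18 to 3.68, with TRAK2 at 1.73 in TDP43 non-targeting cells), RHOT2 lies below 0 in all 5 settings, and HAP1 is below 0 in untreated neurons only.

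Set against hnRNPA1 non-targeting cells in one fit, untreated neurons had a higher neurite to soma ratio of RHOT1, TRAK2 and BICD1 and a lower one of HAP1. The differences of log2 ratios were 0.96 ± 0.10 for RHOT1 (adjusted p = 2.4e-10), 0.84 ± 0.15 for TRAK2 (1.2e-05), 0.60 ± 0.11 for BICD1 (2.5e-05) and -1.93 ± 0.25 for HAP1 (2.1e-08, edgeR). Of 29425 genes, 37.1% were called, 13.1% higher and 23.9% lower, and the median gene stood at -0.41. With library sizes TRAK2 (0.25) and BICD1 (0.03) were no longer called, and RHOT2 (-1.29), TRAK1 (-0.81), BICD2 (-0.76) and SNPH were called lower. Against TDP43 non-targeting cells, with the same untreated libraries, RHOT1 (0.65 ± 0.11) and BICD1 (0.88 ± 0.12) were again higher and HAP1 (-2.10 ± 0.25) lower, where 37.5% of genes were called, 13.5% higher and 24% lower, and the median gene stood at -0.48. TRAK2 stood at 1.45 ± 0.15 and BICD2 at 0.03 ± 0.16 there, as descriptions. RHOT1 lost its call with library sizes (0.26), and RHOT2 (-0.93), SNPH (-0.71) and TRAK1 (-0.49) were then called lower. Between the 2 non-targeting groups, 3.06% of genes were called, 1.59% higher and 1.47% lower. None of the 6 testable members passed in edgeR, 2 had an unadjusted p under 0.05 and DESeq2 called 1. The nearest was RHOT1 at -0.31 ± 0.10 (hnRNPA1 minus TDP43 experiment, edgeR adjusted p = 0.063).

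On TDP43 knockdown, TRAK2, BICD2, BICD1 and TRAK1 had higher levels in neurites, with smaller differences in soma. TRAK2 had 782, 865, 863, 729 and 753 CPM in knockdown neurites, against 302, 296, 167, 237 and 240.3 CPM in non-targeting neurites. The lowest knockdown library lay far above the highest non-targeting one, and the fitted log2 fold change was 1.68 ± 0.10, or 3.20-fold. In soma TRAK2 had 91.9, 93.2, 93.0 and 95.0 CPM in knockdown, against 77.1, 77.4, 76.9, 73.9 and 71.7 CPM in non-targeting cells, a log2 fold change of 0.31 ± 0.10. The soma groups did not overlap either. The ratio of neurites to soma was therefore higher by 1.37 ± 0.14 on the log2 scale, which ranked TRAK2 83 among 22014 genes ordered from highest. Without any 1 library this value ran from 1.26 to 1.45. All of these TRAK2 values describe what the gene was listed for.

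BICD2, the dynein activator, had 839, 1045, 1024, 1051 and 1067 CPM in knockdown neurites, against 499, 459.8, 400.4, 343 and 464 CPM in non-targeting neurites. The groups did not overlap and the log2 fold change was 1.213 ± 0.080, or 2.32-fold. In soma it had 78.0, 82.3, 76.0 and 77.9 CPM in knockdown, against 72.5, 78.7, 68.0, 74.6 and 72.7 CPM in non-targeting cells, a log2 fold change of 0.10 ± 0.09 between overlapping groups. Its change of ratio was 1.113 ± 0.117 on the log2 scale, rank 198 of 22014. Without any 1 library it ran from 1.04 to 1.2. As for TRAK2, these values are what chose the gene.

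The paralogs BICD1 and TRAK1 also rose in neurites. In neurites, 24.8% of 22014 genes were called on TDP43 knockdown, 14% higher and 10.9% lower, and among the 6 other members BICD1 and TRAK1 were called higher and RHOT1 lower. BICD1 had 566, 610.0, 637, 657 and 745 CPM in knockdown neurites, against 471, 459.6, 382, 369.5 and 435 CPM in non-targeting neurites. Each knockdown library lay above each non-targeting one (log2 0.60 ± 0.07, edgeR adjusted p = 2.1e-07). TRAK1 had 294, 346, 317, 324 and 331 CPM in knockdown neurites, against 254, 255, 203, 231 and 236 CPM in non-targeting neurites, again without overlap (log2 0.45 ± 0.06, edgeR adjusted p = 2.4e-06). How many of all genes separate these groups without overlap was not counted. With library sizes both calls remained, at 0.67 for BICD1 and 0.50 for TRAK1 (edgeR adjusted p = 9.2e-04 and 0.011). RHOT1 had 70.5, 67.8, 63.6, 59.9 and 64.9 CPM in knockdown neurites, against 72.5, 72.9, 84.3, 78.1 and 69.1 CPM in non-targeting neurites. These groups overlapped slightly (log2 -0.20 ± 0.06, edgeR adjusted p = 0.012), and the call was lost without knockdown neurite sample 4 (-0.16), without the filter on low counts and with library sizes (-0.13). RHOT2 ran from 29.4 to 39.0 CPM in knockdown neurites, against 30.9 to 40.7 CPM in non-targeting neurites, SNPH from 62.0 to 67.4 against 59.8 to 69.4 CPM, and HAP1 from 10.4 to 11.3 against 9.77 to 15.7 CPM, each overlapping. RHOT2 at 0.01 ± 0.08, HAP1 at -0.21 ± 0.13 and SNPH at 0.00 ± 0.06 did not pass. The log2 95% intervals of RHOT2 and SNPH ran from -0.15 to 0.17 and from -0.12 to 0.12.

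**Figure D3:**
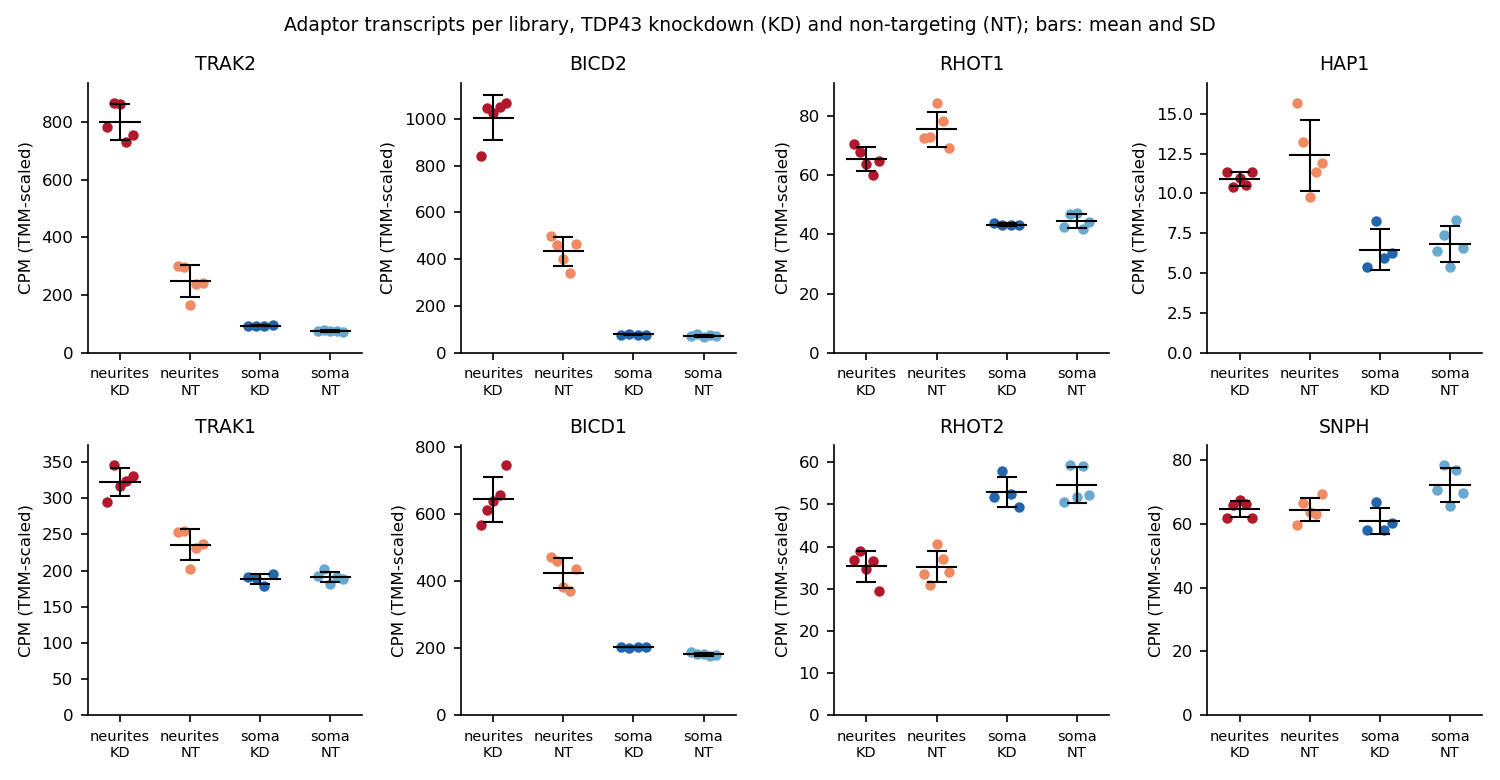
CPM of each member in every library of the TDP43 experiment, with knockdown left of non-targeting in neurites and then in soma, points as libraries and bars as mean and SD. TRAK2, BICD2, BICD1 and TRAK1 separate knockdown from non-targeting neurites without overlap (TRAK2 798 ± 62.9 and 248 ± 54.9 CPM), and RHOT1, HAP1, RHOT2 and SNPH overlap in neurites. TRAK2 and BICD2 were listed for this shift, and the share of all genes that separate these groups was not counted.

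In soma, 19% of genes were called on TDP43 knockdown, 9.42% higher and 9.53% lower, and SNPH was the only 1 of the 6 testable members to pass. SNPH had 58.1, 66.9, 58.3 and 60.5 CPM in knockdown soma, against 70.7, 78.5, 65.6, 77.1 and 69.7 CPM in non-targeting soma. The highest knockdown library lay above the lowest non-targeting one (log2 -0.25 ± 0.06, edgeR adjusted p = 3.3e-03). With library sizes the value was -0.24 but the adjusted p was 0.378. BICD1 ran from 201.2 to 201.5 CPM in knockdown soma, against 176 to 188 CPM in non-targeting soma, without overlap, yet did not pass across all genes (log2 0.15 ± 0.07, edgeR adjusted p = 0.171). TRAK1 (-0.02 ± 0.06), RHOT1 (-0.04 ± 0.06), RHOT2 (-0.05 ± 0.07) and HAP1 (-0.07 ± 0.12) stood near 0.

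The change of the neurite to soma ratio itself passed for TRAK1 and BICD1. It was 0.47 ± 0.09 on the log2 scale for TRAK1 (edgeR adjusted p = 9.2e-04) and 0.45 ± 0.10 for BICD1 (edgeR adjusted p = 4.7e-03), where 10.5% of genes were called, 5.83% higher and 4.66% lower. Without any 1 library TRAK1 ran from 0.42 to 0.50 and BICD1 from 0.40 to 0.50, and both kept an adjusted p of at most 0.0044 and 0.012. With library sizes the values were larger, 0.52 each, but neither was called (edgeR adjusted p = 0.195 and 0.227). SNPH stood at 0.25 ± 0.09 (edgeR adjusted p = 0.062), RHOT1 at -0.17 ± 0.08, HAP1 at -0.14 ± 0.18 and RHOT2 at 0.05 ± 0.11, none of them past the threshold in edgeR. SNPH was called by DESeq2 (0.25, adjusted p = 0.049) and with a replicate block within guide (0.27, edgeR adjusted p = 0.045), and was not called with library sizes or without the low-count filter (edgeR adjusted p = 0.463 and 0.226).

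Several library properties moved with TDP43 knockdown in neurites. The 7SL RNAs took 13.4, 21.0, 5.25, 3.96 and 3.61% of counts in knockdown neurites, against 14.2, 12.7, 29.8, 22.2 and 11.4% in non-targeting neurites. Of the non-targeting neurites, sample 4 had both the highest 7SL share and the lowest TRAK2 level, 167 CPM. Of the knockdown neurites, sample 2 had both the highest 7SL share and the highest TRAK2 level, 865 CPM. In the same order of libraries, TRAK2 had 782, 865, 863, 729 and 753 CPM in knockdown neurites. Non-targeting neurites had 302, 296, 167, 237 and 240.3 CPM. TRAK2 was listed for this shift, so these values are a description. Transcripts of the mitochondrial genome that encode proteins took 3.25 ± 0.475% of counts in knockdown and 2.13 ± 0.452% in non-targeting neurites, and rRNA 4.88 ± 0.627% and 3.67 ± 0.379%. Neural progenitor markers summed to 470.4 to 562 CPM in knockdown and 378 to 451 CPM in non-targeting neurites, nearly all of it NES. Of the 7 progenitor markers tested, NES rose and VIM fell. No cycling, glial or mesenchymal marker passed of 6, 4 and 4 tested (edgeR), and both pluripotent markers tested, SOX2 and LIN28A, fell. Summed levels in knockdown and non-targeting neurites were 21.7 to 30.7 and 24.5 to 32.4 CPM for cycling, 15.5 to 20.2 and 16.6 to 22.1 CPM for glial, 10.5 to 13.0 and 7.73 to 13.7 CPM for mesenchymal, and 12.5 to 15.2 and 18.3 to 22.3 CPM for pluripotent markers, with ZFP42 at 0 in both. Among 10 neuronal markers, 2 rose and 3 fell, with STMN2, a known target of TDP-43 splicing control, at -1.42 on the log2 scale. The part of these properties in the members' values was not tested.

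On hnRNPA1 knockdown some members were called in neurites, with log2 values between -0.29 and 0.32, and none in soma. In soma none of the 8 passed in edgeR or in DESeq2, 3 had an unadjusted p under 0.05, and 7.09% of genes were called, 3.79% higher and 3.3% lower. TRAK2 ran from 95.0 to 116 CPM in knockdown soma (median 107), against 94.5 to 102 CPM in non-targeting soma (median 96.5), and its log2 fold change was 0.11 ± 0.10. BICD1 ran from 234 to 247 CPM in knockdown soma (median 239.9), against 209 to 243 CPM in non-targeting soma (median 216), with a log2 fold change of 0.12 ± 0.06 (edgeR adjusted p = 0.233). Fold changes of the 8 members in soma lay between -0.04 for RHOT1 and 0.21 ± 0.10 for HAP1. In neurites 16.2% of genes were called, 8.95% higher and 7.21% lower, and RHOT2 was called higher and RHOT1 and BICD2 lower. RHOT2 ran from 45 to 56.3 CPM in knockdown neurites (median 52.6), against 36.3 to 45.5 CPM in non-targeting neurites (median 43.186), with a slight overlap (log2 0.32 ± 0.07, n = 6 each, edgeR adjusted p = 2.1e-03). With library sizes it stood at 0.18 and was not called (adjusted p = 0.066). RHOT1 ran from 55.7 to 69.6 CPM in knockdown neurites (median 62.2), against 67 to 81.9 CPM in non-targeting neurites (median 71.1), with overlap (log2 -0.22 ± 0.06, edgeR adjusted p = 0.012). This call was lost without non-targeting neurite sample 1 (-0.18). BICD2 ran from 295 to 501 CPM in knockdown neurites (median 414), against 385 to 600.2 CPM in non-targeting neurites (median 515), also overlapping (log2 -0.29 ± 0.09, edgeR adjusted p = 0.028). Leaving out any of knockdown neurite samples 2, 4 and 5 or non-targeting neurite samples 4, 5 and 6 ended the BICD2 call, with values of -0.21 to -0.28. TRAK2 stood at 0.02 ± 0.10 in neurites, with a 95% interval of -0.17 to 0.22, and TRAK1 at 0.10 ± 0.05. Neural progenitor markers summed to 671 ± 52.1 CPM in hnRNPA1 knockdown neurites and 524 ± 45.5 CPM in non-targeting neurites, with 3 of 7 tested higher (PAX6 by 1.2 on the log2 scale) and 1 lower. The 7SL share was 6.78 to 12.5% in knockdown and 3.62 to 8.05% in non-targeting neurites. Their part in these values was not tested.

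No member's neurite to soma ratio passed on hnRNPA1 knockdown, with 0.177% of 19812 genes called in edgeR (0.0454% higher and 0.131% lower). Of the 8 members, 4 had an unadjusted p under 0.05 and DESeq2 called 0. BICD2 stood at -0.36 ± 0.13 (edgeR adjusted p = 0.356), HAP1 at -0.40 ± 0.15, BICD1 at -0.21 ± 0.08 and TRAK2 at -0.08 ± 0.14. With library sizes or without the low-count filter BICD2 was called (edgeR adjusted p = 0.039 and 0.021). Within the hnRNPA1 knockdown cells the fractions still differed: BICD2 was higher in neurites by 2.33 ± 0.10, TRAK2 by 2.18 ± 0.11, BICD1 by 1.214 ± 0.059, TRAK1 by 0.42 ± 0.05 and RHOT1 by 0.20 ± 0.06, RHOT2 was lower by -0.37 ± 0.07, and 35.8% of genes were called, 19.4% higher and 16.4% lower. TRAK1 (-0.01), RHOT1 (-0.23) and HAP1 (-0.19, main value 0.25 ± 0.11) turned direction with library sizes, and without the low-count filter RHOT1 was no longer called (0.15, edgeR adjusted p = 0.121). In TDP43 knockdown cells the ratios were 3.68 ± 0.10 for BICD2 and 3.10 ± 0.11 for TRAK2 as descriptions, and 1.67 ± 0.08 for BICD1, 0.77 ± 0.06 for TRAK1, 0.76 ± 0.13 for HAP1, 0.59 ± 0.06 for RHOT1 and -0.59 ± 0.08 for RHOT2, all called by edgeR, where 57.7% of genes were called, 28.7% higher and 29% lower. With library sizes TRAK1 (0.23), HAP1 (0.22) and RHOT1 (0.05) lost their calls there (edgeR adjusted p = 0.167, 0.214 and 0.758).

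**Figure D4:**
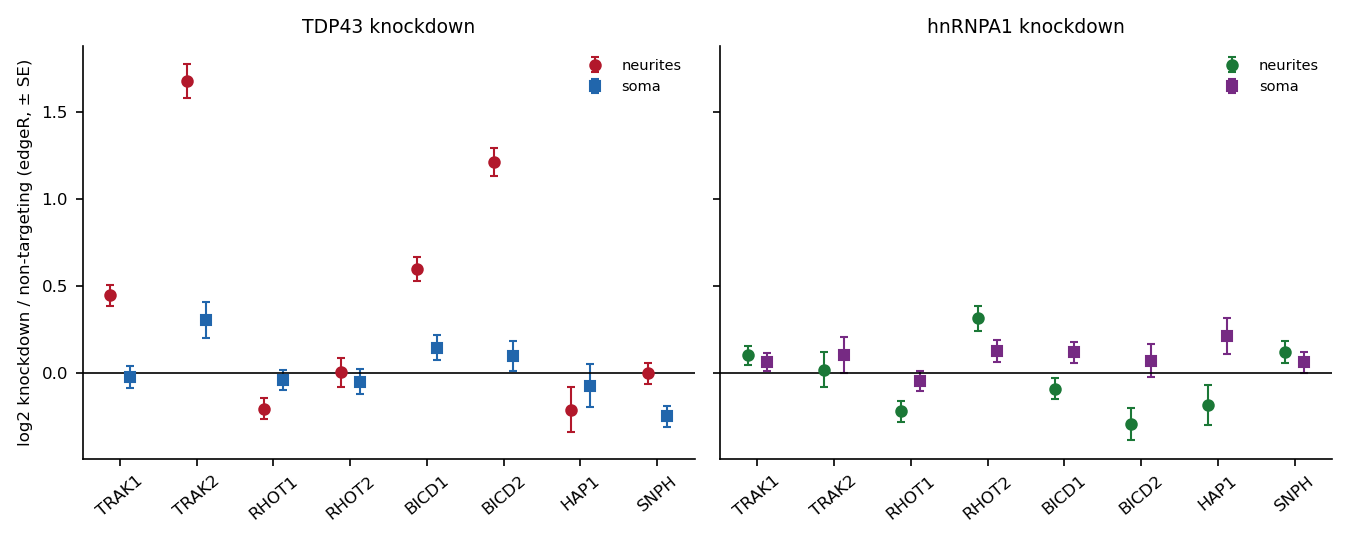
Log2 fold change of knockdown over non-targeting in neurites and in soma, TDP43 left and hnRNPA1 right, with bars as SE. In neurites on TDP43 knockdown TRAK2 (1.68), BICD2 (1.213), BICD1 (0.60) and TRAK1 (0.45) lie above 0, while on hnRNPA1 knockdown all 8 members lie between -0.29 and 0.32.

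Within each paralog pair the balance differed between fractions. The ratio of 2 counts in one library does not depend on its scaling, and since it is not set per length it is compared here between groups only. The 15 ratios tested used 2-sided exact permutation tests of the log2 ratio, with Benjamini-Hochberg adjustment over the 15. TRAK2 stood at 8.22 ± 1.34 times the TRAK1 count in untreated neurites and 1.06 ± 0.0950 times in untreated soma (exact permutation p = 0.0286, the smallest that 4 against 4 allow, adjusted 0.0612). In hnRNPA1 non-targeting cells it was 1.87 ± 0.365 in neurites and 0.506 ± 0.0404 in soma (exact permutation p = 0.00216, the smallest for 6 against 6, adjusted 0.00812). On hnRNPA1 knockdown the log2 ratio differed by -0.10 in neurites and 0.04 in soma (exact permutation p = 0.602 and 0.548). On TDP43 knockdown it was 2.48 ± 0.215 in knockdown neurites and 1.04 ± 0.146 in non-targeting neurites, and 0.495 ± 0.0184 in knockdown soma and 0.395 ± 0.0174 in non-targeting soma, as descriptions. Neither pair of groups overlapped.

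The BICD2 to BICD1 count ratio was 1.57 ± 0.110 in TDP43 knockdown neurites and 1.02 ± 0.0580 in non-targeting neurites. In soma the ratio was 0.390 ± 0.0134 in knockdown and 0.404 ± 0.0252 in non-targeting cells, with overlap. These 4 values are descriptions. In hnRNPA1 non-targeting cells the ratio was 0.846 ± 0.0944 in neurites and 0.353 ± 0.0408 in soma (exact permutation p = 0.00216, adjusted 0.00812). On hnRNPA1 knockdown it was 0.734 ± 0.0645 in knockdown neurites and 0.846 ± 0.0944 in non-targeting neurites (exact permutation p = 0.0390, adjusted 0.0731). In untreated neurons it was 0.230 ± 0.0481 in neurites and 0.166 ± 0.00995 in soma, overlapping (exact permutation p = 0.114).

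The RHOT2 to RHOT1 count ratio was lower in neurites than in soma in every setting tested. In TDP43 non-targeting cells the RHOT2 to RHOT1 ratio was 0.467 ± 0.0263 in neurites and 1.233 ± 0.118 in soma (exact permutation p = 0.00794, the smallest for 5 against 5, adjusted 0.0238). In hnRNPA1 non-targeting cells it was 0.583 ± 0.0915 in neurites and 1.097 ± 0.130 in soma (exact permutation p = 0.00216, adjusted 0.00812). On hnRNPA1 knockdown it was 0.831 ± 0.0810 in knockdown neurites and 0.583 ± 0.0915 in non-targeting neurites, without overlap (exact permutation p = 0.00216, adjusted 0.00812). On TDP43 knockdown it was 0.541 ± 0.0587 in knockdown neurites and 0.467 ± 0.0263 in non-targeting neurites, overlapping (exact permutation p = 0.0476, adjusted 0.0794). In untreated cells the ratio was 0.0178 ± 0.00423 in neurites and 0.103 ± 0.0298 in soma (exact permutation p = 0.0286, adjusted 0.0612), on the low RHOT2 counts given above.

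**Figure D5:**
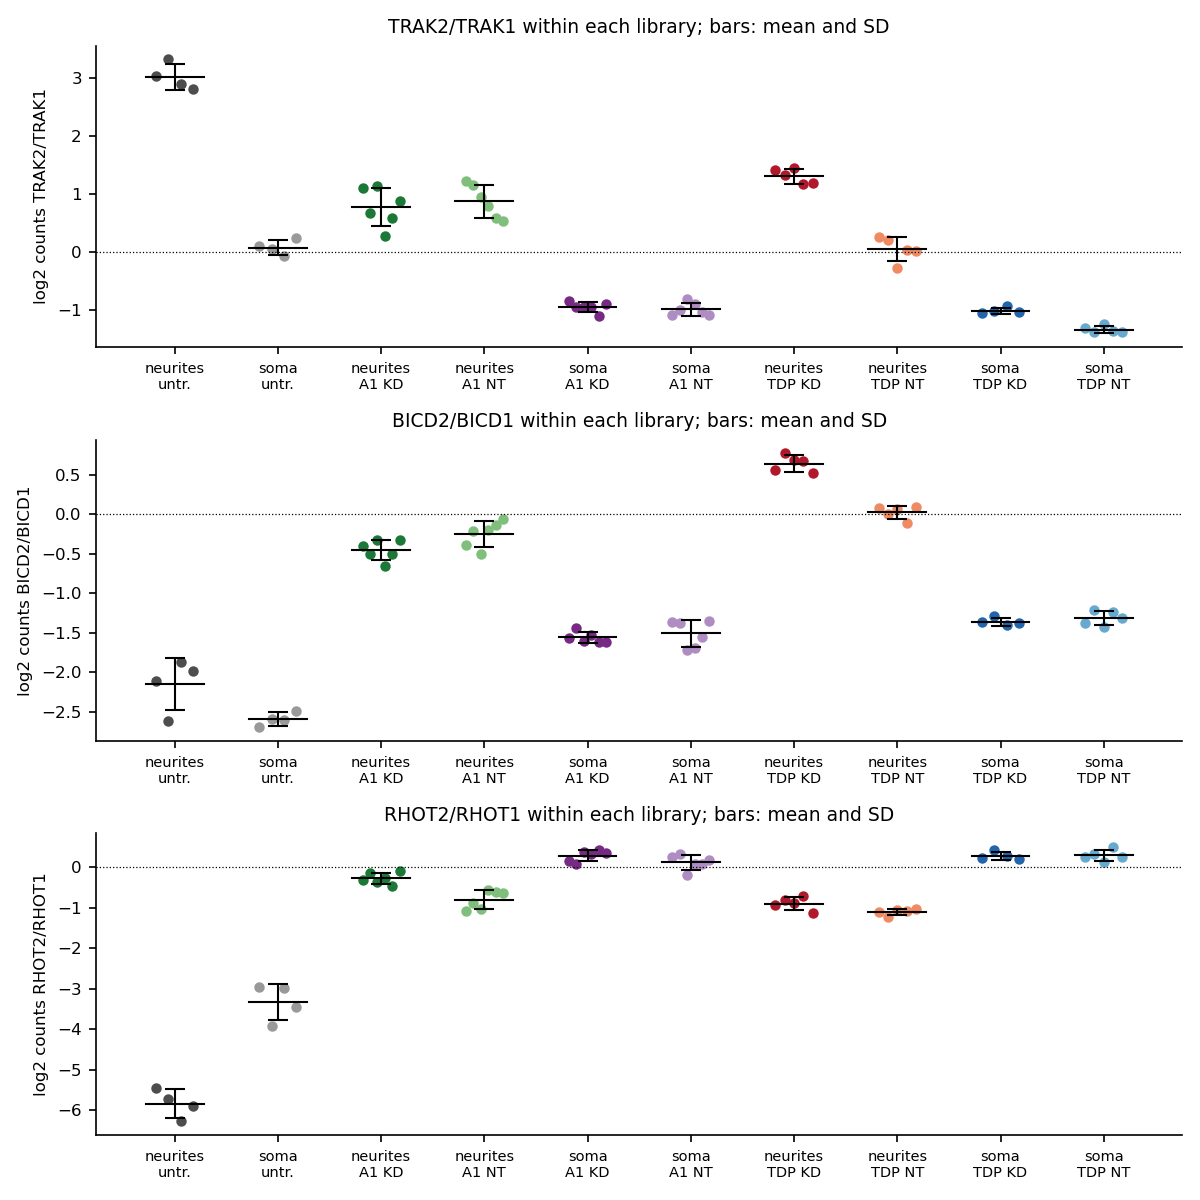
Log2 ratio of the counts of paralogs in each library of the 10 groups (TDP, TDP43 experiment; A1, hnRNPA1 experiment; untr., untreated). TRAK2 over TRAK1 averages 8.22 in untreated neurites and 2.48 in TDP43 knockdown neurites on the linear scale, and RHOT2 over RHOT1 is lower in neurites than in soma of each setting.

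Among the motors and partners of the members, some kinesin-1 subunits and other motor adaptors rose and none fell in TDP43 knockdown neurites, while genes of dynein and mitochondrial partners changed in both directions. In neurites 3 of 6 kinesin-1 subunits tested rose, led by KIF5C, the neuronal heavy chain (log2 0.54 ± 0.08, edgeR adjusted p = 7.2e-06), and none fell; the list's median was 0.17, beside -0.03 for all genes. Of 17 other motor adaptors 8 rose and none fell, led by MAPK8IP3 (JIP3, an adaptor of lysosome and vesicle transport) at 0.55 ± 0.07 (edgeR adjusted p = 1.2e-06), with a median of 0.22. Of 25 genes of dynein, dynactin and LIS1, 5 rose and 4 fell (median -0.06), from DYNC1H1, the dynein heavy chain, at 0.31 to DYNC1I1, an intermediate chain, at -0.40. Of 15 partners of Miro and TRAK on mitochondria, 3 rose and 3 fell (median -0.03), from MFN2, a mitofusin, at 0.38 to DISC1, a scaffold that binds TRAK and Miro, at -0.45. Of 8 partners and cargo of BICD and HAP1, 3 rose, with huntingtin (HTT) at 0.29, and 1 fell, KALRN at -0.25 (median 0.13). These counts stand beside the 14% higher and 10.9% lower of all genes. They were made with TMM only. With library sizes fewer genes were called in these neurites, 2586 in place of 5468. For the neurite to soma ratio, with 5.83% of all genes higher and 4.66% lower, 4 of 17 adaptors were called higher and none lower (MAPK8IP3 0.60 ± 0.10, edgeR adjusted p = 3.7e-04). Each of the other lists had 1 gene called higher, KIF5C (0.37) of 6, DCTN5, a dynactin subunit (0.32), of 25, MFN2 (0.36) of 15 and RAB6B, a Rab6 form of brain (0.25), of 8. OGT, the enzyme that modifies TRAK with sugar, was called lower (-0.30), and so was CAPZA1, a capping subunit in dynactin (-0.31), the only 2 genes of these lists called lower. With library sizes 328 genes were called for this change of ratio, against 2309 with TMM. Whether these list calls hold with that scaling was not tested.

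In untreated neurons the neurite fraction was also richer in several motor genes with TMM, beside the 28.7% higher and 27.8% lower of all genes. The list counts here were not made with library sizes. That scaling put the median gene of untreated neurons at -1.40, with 12.5% of calls higher (50.8% with TMM). KIF5C was higher by 2.95 on the log2 scale, as were 3 of 6 kinesin-1 subunits in all, with none lower. Of 16 other motor adaptors 10 were higher, led by HOOK3, a dynein activator, at 3.23, and 2 were lower. Of 24 dynein and dynactin genes 11 were higher and 3 lower. The balance was different in the non-targeting cells, where 25 dynein and dynactin genes gave 5 higher and 10 lower (TDP43) and 4 higher and 8 lower (hnRNPA1), and 6 kinesin-1 subunits gave 2 higher and 2 lower (TDP43) and 3 higher and 2 lower (hnRNPA1). Other adaptors gave 8 of 17 higher and 4 lower (TDP43) and 7 higher and 6 lower (hnRNPA1). Differences between these settings were not tested for the lists, and untreated neurons also differ from the non-targeting cells in kit version. RAB6A, the main Rab6 cargo partner of BICD proteins, was higher by 1.964 in neurites of untreated neurons, and OGT was lower there by -1.10. On hnRNPA1 knockdown in neurites, beside 8.95% of all genes higher and 7.21% lower, 5 of 25 dynein, dynactin and LIS1 genes rose and none fell, led by ACTR1B, a dynactin subunit, at 0.27 ± 0.08 (edgeR adjusted p = 0.025). Of 17 other adaptors 2 rose, led by MAPK8IP1 at 0.34, and 2 fell, HOOK1 at -0.38 the lower. Of 8 partners of BICD and HAP1, KALRN rose (0.16), and no kinesin-1 subunit of 6 and no mitochondrial partner of 15 passed in edgeR.

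Over the 10 group means, the pattern of TRAK2 was most like that of BICD1 (Pearson r = 0.986) among 9159 genes, followed by TP53INP2 (0.974). BICD2 was most like SPTBN1, which encodes a brain spectrin (0.989). TRAK1 was most like AGAP1 (0.999), RHOT1 most like UBA2 (0.996), and SNPH most like ZNF689 and KEAP1 (0.999 each). These are descriptions over 10 points that share library kits, depth and fraction within each experiment.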

How the data were processed

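Total RNA-seq was measured in 52 libraries of neurites and soma. The authors deposited one table of expected counts (featureCounts values, of which 81.1% of those above 0 are whole within 0.005), made with STAR 2.7.11b and featureCounts of Subread 2.0.6 on hg38 per the submitters' processing notes. With the annotation and the strand and multi-mapping settings not given in the sources used here, reads shared between copies or repeats, such as 7SL, may be split.

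Values were rounded to whole numbers. A library needed 100000 counts, which left 51. Groups came from the labels. Names were matched for 62666 gene IDs, of which GENCODE release 29 holds 58228. edgeR 4.0.16 (R 4.3.3) fitted quasi-likelihood models with TMM scaling and its filter on low counts, on all libraries of an experiment, and on untreated and non-targeting libraries together for ratios between experiments. Adjusted p under 0.05 was called. Log2 CPM used a prior count of 2. The fits were tested on simulated data. Paralog count ratios were compared by exact permutation. DESeq2 1.42.0, library sizes, no filter, a replicate block and leaving out each library were the alternatives.

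The members and the lists of motors, partners and markers were chosen with earlier results of these data known. Named genes of a list are those with the highest and the lowest called fold change. Like genes are the 3 with the highest Pearson r over group means, among genes of at least 5 CPM. In 108 pairs of libraries of a group, counts differed beyond sampling noise (chi-square per degree of freedom 1.91 to 161), so none was treated as a copy. Libraries with the same number deviated together in every pair (r over 0.1) only between TDP43 knockdown neurites and soma (0.128 to 0.243, 4 pairs) and between knockdown and non-targeting soma of TDP43 (0.143 to 0.244, 3 pairs). Intervals and tests cover the spread between libraries, and low counts such as RHOT2 and HAP1 in untreated neurites limit precision.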

Additional observations from a re-analysis of the deposited data

Results flagged for a closer look

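Among 80 sets of libraries (8 members in 10 groups), 2 held a library far from the rest, where chance gives about 1 in 20. RHOT1 had 43.94 CPM in TDP43 knockdown soma sample 1, within a group whose whole range was 43.0 to 43.94 CPM. BICD2 had 839 CPM in TDP43 knockdown neurite sample 1, against 1024 to 1067 CPM in the other knockdown neurite libraries, and above all non-targeting neurite libraries (343 to 499 CPM).

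Members whose neurite to soma ratio differed between conditions by a test of the difference itself were TRAK1 (0.47) and BICD1 (0.45) for TDP43 knockdown against non-targeting, where 10.5% of all genes were called. Untreated neurons differed from hnRNPA1 non-targeting cells in TRAK2 (0.84), RHOT1 (0.96), BICD1 (0.60) and HAP1 (-1.93), where 37.1% of all genes were called. Untreated neurons differed from TDP43 non-targeting cells in RHOT1 (0.65), BICD1 (0.88) and HAP1 (-2.10), where 37.5% of all genes were called. All values are differences of log2 ratios from edgeR, and the untreated libraries are shared by both of the last comparisons and differ in kit version. With library sizes TRAK1 and BICD1 lost their calls for TDP43 knockdown. TRAK2 and BICD1 then lost theirs against hnRNPA1 non-targeting cells, and RHOT1 against TDP43 non-targeting cells.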

How the results depend on the processing

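Of the alternatives, DESeq2 left 108 of 112 results on the same side of the threshold and in the same direction, no filter 104, a replicate block over all groups 107, and library sizes 67. A replicate block within guide left 75 of 80. These counts, and those for leaving out libraries, include the TRAK2 and BICD2 values given without a test. Such a value held if its direction stayed and it moved by less than the SD of log2 CPM within groups. The cause of each change below was not tested. With library sizes in place of TMM, genes called numbered 16926 between neurites and soma of untreated neurons (10484 with TMM), 16425 in TDP43 non-targeting (10234), 14485 in hnRNPA1 knockdown cells (7092), 1680 on TDP43 knockdown in soma (4172), 2586 in neurites (5468), 328 for its change of ratio (2309), 71 for that of hnRNPA1 (35) and 1382 between the ratios of both non-targeting groups (900). The share of higher calls fell to 12.5% between untreated neurites and soma (50.8% with TMM), 13.7% in hnRNPA1 non-targeting (48.6%), 11.5% in TDP43 non-targeting (51.9%), 8.07% in hnRNPA1 knockdown (54.2%) and 13.8% in TDP43 knockdown cells (49.7%). Members called then changed to 4 lower (untreated), 2 lower (hnRNPA1 non-targeting), 1 higher (TDP43 non-targeting), 3 higher and 3 lower (hnRNPA1 knockdown), 1 higher and 2 lower (TDP43 knockdown), 0 higher and 4 lower (hnRNPA1 knockdown neurites), 0 lower (TDP43 knockdown soma and neurites), 0 higher (TDP43 change of ratio) and 1 lower (that of hnRNPA1). Untreated against hnRNPA1 non-targeting ratios gave 1 higher and 5 lower, and against TDP43 non-targeting 1 and 4. Directions that turned with library sizes were TRAK1 in untreated neurons (-0.78), TDP43 non-targeting (-0.30), hnRNPA1 knockdown cells (-0.015), hnRNPA1 knockdown neurites (-0.033) and change of ratio (-0.046), TRAK2 (-0.13) and SNPH (-0.014) in hnRNPA1 knockdown neurites, SNPH for that change of ratio (-0.024) and in TDP43 knockdown cells (-0.46), RHOT1 (-0.23) and HAP1 (-0.19) in hnRNPA1 knockdown cells, and BICD2 for untreated against TDP43 non-targeting (-0.39).

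Without the filter, the hnRNPA1 change of ratio had 140 genes called (77 with DESeq2) and 1 member lower, TDP43 knockdown neurites 0 lower, hnRNPA1 knockdown cells lost the RHOT1 call (0.15), and untreated against hnRNPA1 non-targeting 2 lower. TRAK2 in hnRNPA1 knockdown neurites (-0.020), SNPH in TDP43 knockdown cells (-0.010) and neurites (-0.00017) and BICD2 for untreated against TDP43 non-targeting (-0.021) then turned direction. With DESeq2, TRAK1 turned for untreated against TDP43 non-targeting (0.062), SNPH in TDP43 knockdown neurites (-0.00071), 1 member was lower between the non-targeting groups (RHOT1), and SNPH passed for the TDP43 change of ratio (0.25, adjusted p = 0.049), which gave 3 members higher.

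With a replicate block, over all groups or within guide, 2 members were lower in hnRNPA1 non-targeting neurites (SNPH joined at -0.14), 3 for untreated against hnRNPA1 non-targeting and 1 between the non-targeting groups, SNPH passed for the TDP43 change of ratio within guide (0.27, edgeR adjusted p = 0.045), the hnRNPA1 change of ratio had 54 or 55 genes, and RHOT2 in TDP43 knockdown neurites stood at -0.0028. Between the groups whose numbers paired, TDP43 knockdown neurites with soma and knockdown with non-targeting soma, the block changed no call of a member. The TDP43 change of ratio uses these libraries too, and there SNPH gained its call with the block within guide.

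Leaving out 1 library at a time, 1513 results held, 31 turned, 19 gained and 13 lost a call. Members lower ran from 1 to 2 in untreated, hnRNPA1 non-targeting and TDP43 non-targeting neurites and in hnRNPA1 knockdown neurites, 0 to 1 in TDP43 knockdown neurites, 1 to 3 and 1 to 2 for untreated against hnRNPA1 and TDP43 non-targeting, and 0 to 1 between those. Genes called ran from 12 to 73 for the hnRNPA1 change of ratio and 488 to 1060 between the non-targeting groups. Values that crossed 0 were TRAK2 (-0.058 to 0.10) in hnRNPA1 knockdown neurites, HAP1 (-0.21 to 0.013) and TRAK1 (-0.036 to 0.0074) in TDP43 knockdown soma, RHOT2 (-0.037 to 0.074) and SNPH (-0.028 to 0.029) in TDP43 knockdown neurites, SNPH (-0.017 to 0.10) and TRAK1 (-0.016 to 0.058) for the hnRNPA1 and HAP1 (-0.22 to 0.0014) for the TDP43 change of ratio, and BICD2 (-0.080 to 0.15) and TRAK1 (-0.14 to 6.2e-05) for untreated against TDP43 non-targeting. Log2 paralog ratios ran from 2.85 to 3.02 (TRAK2 over TRAK1) and -2.70 to -2.36 (RHOT2 over RHOT1) in untreated neurons, where 3 against 4 cannot reach p under 0.05. On hnRNPA1 knockdown they ran from -0.17 to 0.0023 (TRAK2 over TRAK1, neurites), 0.11 to 0.21 (RHOT2 over RHOT1, soma) and -0.25 to -0.16 (BICD2 over BICD1, neurites), and for RHOT2 over RHOT1 on TDP43 knockdown from -0.056 to 0.041 (soma) and 0.16 to 0.27 (neurites).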
